A study of Cyprinus carpio with 6 samples.

Results

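The genes of glycolysis were followed in brain RNA of common carp (Cyprinus carpio) with and without lead. The set holds the 62 of 53152 genes in the deposited table to which the gene ontology term for the glycolytic process is attached. That term, and no measured value, decides which genes belong to the set, while the pathway itself was picked for study with earlier results of these data known. Messenger RNA was sequenced in 6 libraries, 3 from brains of carp given lead and 3 from brains of carp given no agent, called control. The series' stated aim was to study brain injury by lead. The labels name the tissue as brain and the agent as lead or none, and give no dose, duration, age, sex or strain. Nothing in them tells whether the libraries of a group are of different fish. The p-values therefore cover the spread among these 6 libraries and no more, and that spread may be technical.

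Glycolysis converts glucose to pyruvate in a chain of enzyme steps, spending ATP in its upper part and regaining it, with NADH, in its lower part. Brain tissue depends on glucose as fuel, and in mammals both neurons and astrocytes run the pathway, with isoforms that are biased to one or the other cell type. Common carp is a recent tetraploid, so most enzymes of the chain are encoded by several gene copies, which are described here one by one. Copies were assigned to 10 enzyme steps by the enzyme commission number in the table, because several of them are described there only as hypothetical proteins. Such a number was found for 59 of the 62 genes. The other 3 were dhtkd1 and a second gene described like it, in the table as a probable 2-oxoglutarate dehydrogenase E1 component, and a keratin-associated protein-like gene.

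Total counts lay between 27841520 and 32826120 in lead libraries and between 31159339 and 34848243 in control libraries, and no pair of libraries had identical counts. The summed level of 50 genes of neuron markers was 2330 to 2703 FPKM (fragments per kilobase, scaled to library size) in lead libraries and 2682 to 3116 FPKM in control libraries. With no other tissue beside them, these sums are no test of what the tissue is. Levels are given below as CPM, which are counts scaled by library total and TMM factor, within a gene and as FPKM where genes are summed or compared. Differences are log2 fold changes of lead over control with their standard error (SE), from edgeR's quasi-likelihood test, with p-values adjusted by Benjamini-Hochberg over the 32149 genes that reached an FPKM of 1 in at least 3 libraries.

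Of the 46 glycolytic genes that passed this filter, 36 (78.3%, against 50.8% of all genes tested) had a negative log2 fold change with lead and 10 a positive one. No glycolytic gene passed an edgeR adjusted p of 0.05, in either direction. Of all genes tested 0.0591% (19 genes) passed it, 0.0124% lower and 0.0467% higher with lead. At an unadjusted p under 0.05, 13 glycolytic genes (28.3%) were lower with lead, against 8.77% of all genes tested, and 1 (2.17%) was higher, against 7.53%. The lead libraries all lay below the control libraries in 12 glycolytic genes (26.1%), against 12.6% of all genes tested, and all above them in 2 (4.35%), against 11.9%. The median log2 fold change was -0.34 over the 46 glycolytic genes and -0.01 over all genes tested. DESeq2 called 10 glycolytic genes lower (21.7%), against 2.22% of all genes tested, and 0 higher, against 1.95%. Each of these 10 was among the 13, while limma on log2(FPKM + 1) called 0 in either direction, against 0.0218% of all genes lower and 0.056% higher. All 13 stayed lower with any 1 library left out, and 11 of them kept an unadjusted p under 0.05 in each of those fits. The 13 were picked by p in these same libraries, so those fits are no independent test. In 12 of the 13 the groups did not overlap, so leaving out 1 library could hardly change the sign. The matching share over all genes is not given. In whole tissue, fewer cells of a type and less RNA per cell cannot be told apart.

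**Figure D1:**
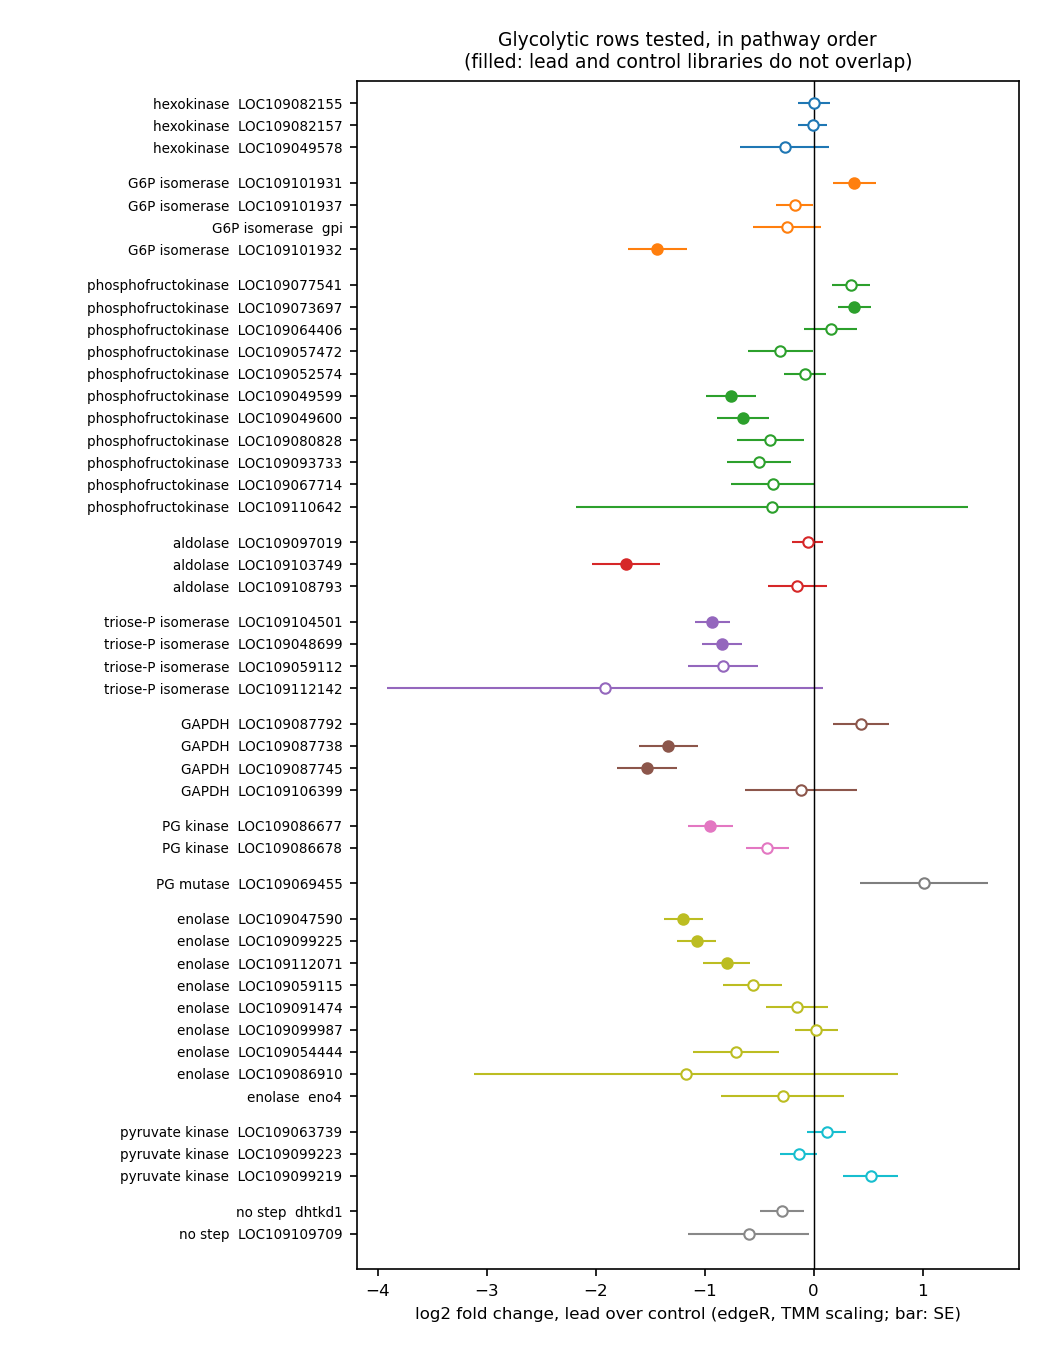
Log2 fold change of lead over control (x axis, edgeR with TMM scaling) for the 46 glycolytic genes tested, in pathway order from hexokinase at the top to pyruvate kinase; points are estimates, bars are 1 SE, and filled points mark genes whose lead and control libraries do not overlap. The filled points to the left of 0 number 12 and those to the right 2, and the lowest value among genes with counts in every library is -1.72, of the aldolase C-A gene.

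At the entry to the pathway, the abundant hexokinase genes, whose products trap glucose in the cell by phosphorylation, had differences near 0 between the groups. The most abundant, LOC109082155, had 227, 193 and 226 CPM in lead libraries, against 233, 189 and 222 CPM in control libraries. Its log2 fold change was 0.01 (SE 0.14, edgeR adjusted p = 0.989), and that of LOC109082157, which lies on the same scaffold, was -0.01 (SE 0.13). The groups overlapped in both genes. A hexokinase-2-like gene of low level, LOC109049578, had a log2 fold change of -0.26 (SE 0.41), with 2.78 to 3.76 CPM in lead libraries and 2.7 to 6.25 CPM in control libraries.

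Glucose-6-phosphate isomerase, which turns glucose 6-phosphate into fructose 6-phosphate, was encoded by 4 genes, and 2 of them lay in opposite directions. LOC109101932 had 7.92, 11.4 and 15.5 CPM in lead libraries, against 31.9, 25.6 and 36.7 CPM in control libraries. All lead libraries were below all control libraries, with a log2 fold change of -1.43 (SE 0.27, unadjusted p = 0.000772, edgeR adjusted p = 0.144). LOC109101931 had 164, 103 and 107 CPM in lead libraries, against 99.96, 97.98 and 90.7 CPM in control libraries. Here all lead libraries were above all control libraries, narrowly, with a log2 fold change of 0.37 (SE 0.20, unadjusted p = 0.0976, edgeR adjusted p = 0.388). In FPKM the groups of LOC109101931 overlapped, at 226.9, 141.4 and 156.4 in lead libraries, against 151.8, 144 and 140.6 in control libraries. Without lead replicate 1 its log2 fold change was 0.13. Both genes lie on the minus strand of NC_031723.1, LOC109101931 from 9883977 to 9885369 and LOC109101932 from 9885514 to 9890140, with 144 bases between them. The ratio of their counts to their FPKM corresponds to lengths of 678 and 698 bases, shorter than the 1690 bases of gpi, another isomerase gene. Whether they are parts of 1 gene cannot be told from the table. The copies gpi and LOC109101937 had log2 fold changes of -0.24 (SE 0.31) and -0.17 (SE 0.17), with groups that overlapped.

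Phosphofructokinase, the main point of control of the pathway, was the step with the most genes, 14, of which 11 were tested. Its most abundant copies had positive log2 fold changes. Platelet-type LOC109073697 had 377, 402 and 358 CPM in lead libraries, against 266, 346 and 265 CPM in control libraries. The groups did not overlap, and with a log2 fold change of 0.37 (SE 0.15, unadjusted p = 0.0422, edgeR adjusted p = 0.293) it was the 1 glycolytic gene higher at an unadjusted p under 0.05. The copy with the highest FPKM of the step, platelet-type LOC109077541, had 266, 309.8 and 294 CPM in lead libraries, against 203, 284 and 197 CPM in control libraries. These groups overlapped, and its log2 fold change was 0.34 (SE 0.18, edgeR adjusted p = 0.372).

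A pair of less abundant platelet-type phosphofructokinase genes was lower with lead. LOC109049599 had 22.1, 39.3 and 37.1 CPM in lead libraries, against 49.4, 55.4 and 61.5 CPM in control libraries, a log2 fold change of -0.76 (SE 0.23, unadjusted p = 0.0112, edgeR adjusted p = 0.213). LOC109049600 had 5.41, 6.95 and 8.73 CPM in lead libraries, against 10.1, 11.4 and 11.5 CPM in control libraries, a log2 fold change of -0.65 (SE 0.24, unadjusted p = 0.0275). The groups did not overlap in either gene. Both lie on the plus strand of NC_031744.1 with 1138 bases between them. Their counts and FPKM correspond to lengths of 1464 and 836 bases, shorter than the 2238 bases of liver-type LOC109052574. Whether they are parts of 1 gene was not tested. If they are, the counts of lower genes above hold that gene more than once. The liver-type copies LOC109057472, LOC109052574 and LOC109093733 had log2 fold changes of -0.31 (SE 0.30), -0.08 (SE 0.20) and -0.50 (SE 0.29), all with groups that overlapped.

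Aldolase splits fructose bisphosphate into triose phosphates, and the lowest log2 fold change among genes with counts in every library was in this step. The aldolase C-A gene LOC109103749 had 57, 104 and 136 CPM in lead libraries, against 264, 348 and 365 CPM in control libraries. All lead libraries were below all control libraries, 3.30-fold lower on average, with a log2 fold change of -1.72 (SE 0.31, unadjusted p = 0.000711, edgeR adjusted p = 0.144, DESeq2 adjusted p = 5.3e-06). In mammals aldolase C is the brain form of the enzyme, found in astrocytes and in Purkinje cells. The aldolase A-like genes, of the form known from muscle and most other tissues, overlapped between the groups. LOC109097019 had 246, 201 and 236 CPM in lead libraries, against 259.9, 230.1 and 219.7 CPM in control libraries (log2 fold change -0.05, SE 0.14). LOC109108793 had 135, 81.1 and 95.1 CPM in lead libraries, against 149.5, 116 and 79.7 CPM in control libraries (log2 fold change -0.15, SE 0.27).

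The table gives LOC109103749 a span on NC_031726.1, plus strand, from 526963 to 693468, which overlaps 4 other genes. Among these, the undescribed LOC109103751 on the same strand had 212, 238 and 193 CPM in lead libraries, against 126, 169 and 130.2 CPM in control libraries, a log2 fold change of 0.60 (SE 0.17, adjusted p = 0.197 by edgeR). The overlapping synergin gamma-like gene LOC109103748 had a log2 fold change of -0.10 (SE 0.13). How the authors assigned reads in overlapping genes is not given, and the part of that step in these values was not tested.

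Outside the set, 8 genes carry the enzyme number of a step without the glycolysis term. Some of them are described as other proteins, such as LOC109065342, AT-rich interactive domain-containing protein 5A-like, under hexokinase, and LOC109067990, astrotactin-1-like, under phosphofructokinase. The enzyme number alone is thus no proof of the enzyme, and its correctness within the set was not tested. Also among the 8 is a second aldolase C gene, LOC109098887. It was the most abundant aldolase gene, with a mean of 666.1 FPKM over the 6 libraries. It had 1494, 1387 and 1381 CPM in lead libraries, against 1521, 1547 and 1658 CPM in control libraries. The groups did not overlap, but the log2 fold change was small, -0.15 (SE 0.13, unadjusted p = 0.289).

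All 4 genes of triosephosphate isomerase, which interconverts the triose phosphates, had negative log2 fold changes. LOC109104501 had 60.1, 57.1 and 76.1 CPM in lead libraries, against 135, 116 and 118 CPM in control libraries, 1.91-fold lower with lead (log2 fold change -0.93, SE 0.16, unadjusted p = 0.000401, edgeR adjusted p = 0.135). LOC109048699 had 35.7, 40.4 and 54.8 CPM in lead libraries, against 75.3, 74.1 and 85.4 CPM in control libraries (log2 fold change -0.84, SE 0.19, edgeR adjusted p = 0.161). In both the groups did not overlap, and DESeq2 called both, at adjusted p-values of 4.56e-05 and 0.00488. LOC109059112 had 14.1, 20.3 and 15.2 CPM in lead libraries, against 36.2, 16 and 36.1 CPM in control libraries, where control replicate 2 lay among the lead libraries (log2 fold change -0.83, SE 0.32, unadjusted p = 0.0345). LOC109112142 had counts of 0, 131 and 151 in lead libraries and 708, 541 and 0 in control libraries. With a library at 0 in each group, its log2 fold change of -1.92 had an SE of 2.0.

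Glyceraldehyde-3-phosphate dehydrogenase, which makes the NADH of the pathway, had copies with log2 fold changes of opposite sign. LOC109087745 had 26.5, 39.7 and 55.4 CPM in lead libraries, against 126, 93.5 and 132 CPM in control libraries (log2 fold change -1.53, SE 0.28, unadjusted p = 0.000616, edgeR adjusted p = 0.143). LOC109087738 had 55, 63.2 and 104 CPM in lead libraries, against 210.5, 143 and 206 CPM in control libraries (log2 fold change -1.33, SE 0.27, edgeR adjusted p = 0.157). The groups did not overlap in either gene. LOC109087792, the glycolytic gene with the highest FPKM, had 995, 705 and 717 CPM in lead libraries, against 398, 774 and 614 CPM in control libraries. These groups overlapped, and its log2 fold change was 0.44 (SE 0.26, unadjusted p = 0.132). Its FPKM averaged 1664 ± 319.8 in lead and 1319 ± 397.5 in control libraries (SD, n = 3 each).

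The 3 abundant dehydrogenase copies share scaffold NW_017545415.1 and the plus strand. LOC109087745 spans 1115398 to 1124639 and LOC109087792 spans 1123321 to 1124972, so that they overlap on the same strand, while LOC109087738 lies apart from both, from 874841 to 884152. Counts that the authors' tool could have placed in either overlapping gene cannot be told apart in the table. The fourth copy, LOC109106399, was near the filter, with 1.36 ± 0.63 CPM in lead and 1.47 ± 0.11 CPM in control libraries (SD, n = 3 each). It carries a different KEGG orthology entry, K00134, from the 3 abundant copies, which carry K10705.

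Phosphoglycerate kinase, which makes the first ATP of the lower pathway, had 2 genes on 1 scaffold. LOC109086677 had 79.6, 70.03 and 115 CPM in lead libraries, against 174, 150.3 and 187 CPM in control libraries. The groups did not overlap, and the gene was 1.93-fold lower with lead (log2 fold change -0.95, SE 0.21, unadjusted p = 0.00182, edgeR adjusted p = 0.161). LOC109086678 had 35.9, 36.5 and 56.1 CPM in lead libraries, against 60.1, 53.6 and 58.6 CPM in control libraries, with a lead library inside the control range (log2 fold change -0.42, SE 0.20, unadjusted p = 0.0657). The only phosphoglycerate mutase gene in the set, the muscle-type-like LOC109069455, was barely detected, at 0.744, 2.23 and 1.7 CPM in lead libraries and 0.698, 0.558 and 1.04 CPM in control libraries. Its log2 fold change of 1.02 had an SE of 0.59. Genes of this step outside the set were sought by enzyme number only, and none was found. A mutase gene without that number would be missed, so this gene may not stand for the whole step.

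Enolase, which makes phosphoenolpyruvate, held the smallest p-values of the set. The alpha-enolase gene LOC109047590, on NC_031701.1 from 2657780 to 2666171, had 114, 141 and 166 CPM in lead libraries, against 314, 290.1 and 361 CPM in control libraries. This is 2.29-fold lower with lead (log2 fold change -1.20, SE 0.18, unadjusted p = 0.000154, edgeR adjusted p = 0.113, DESeq2 adjusted p = 2.83e-07). LOC109099225, described as enolase-like, had 86.5, 75.6 and 105 CPM in lead libraries, against 183, 162 and 216 CPM in control libraries (log2 fold change -1.07, SE 0.18, edgeR adjusted p = 0.127, DESeq2 adjusted p = 1.31e-05). All lead libraries were below all control libraries in both genes.

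Gamma-enolase is the neuronal form in mammals, and its 2 copies were also lower on average with lead. LOC109112071 had 29.6, 41.3 and 48.9 CPM in lead libraries, against 59.6, 66 and 82.8 CPM in control libraries, without overlap (log2 fold change -0.80, SE 0.22, unadjusted p = 0.00651, edgeR adjusted p = 0.196). LOC109059115 had 35.1, 56.6 and 66.3 CPM in lead libraries, against 65.9, 66.6 and 101 CPM in control libraries, with slight overlap (log2 fold change -0.56, SE 0.27). LOC109112071 lies within the span of a syntaxin-1B gene on the opposite strand, LOC109111984, which had a log2 fold change of -0.73 (SE 0.20). Whether counting used the strand is not given, so reads of these 2 genes cannot be told apart with certainty. The beta-enolase-like LOC109099987, of the form known from mammalian muscle, had a log2 fold change of 0.03 (SE 0.20). Beta-enolase-like LOC109086910, on another sequence, had counts of 69, 0 and 105 in lead libraries and 72, 0 and 347 in control libraries. Both overlap a gene described as T-cell surface antigen CD2-like and a hypothetical protein gene of the same description. Whether they are the same gene was not tested. The groups overlapped in both and in the remaining enolase genes.

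Pyruvate kinase, which ends the pathway and makes its last ATP, had copies whose groups overlapped. The PKM-like gene LOC109063739 had 529, 567 and 442 CPM in lead libraries, against 504, 536 and 376 CPM in control libraries (log2 fold change 0.12, SE 0.18, edgeR adjusted p = 0.772). LOC109099223 had 431, 328 and 402 CPM in lead libraries, against 419, 494 and 364 CPM in control libraries (log2 fold change -0.14, SE 0.17). LOC109099219 had 281, 238 and 156 CPM in lead libraries, against 194, 124 and 152 CPM in control libraries (log2 fold change 0.52, SE 0.25, unadjusted p = 0.0715). These 3 genes were the tested ones of the 6 of this step.

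**Figure D2:**
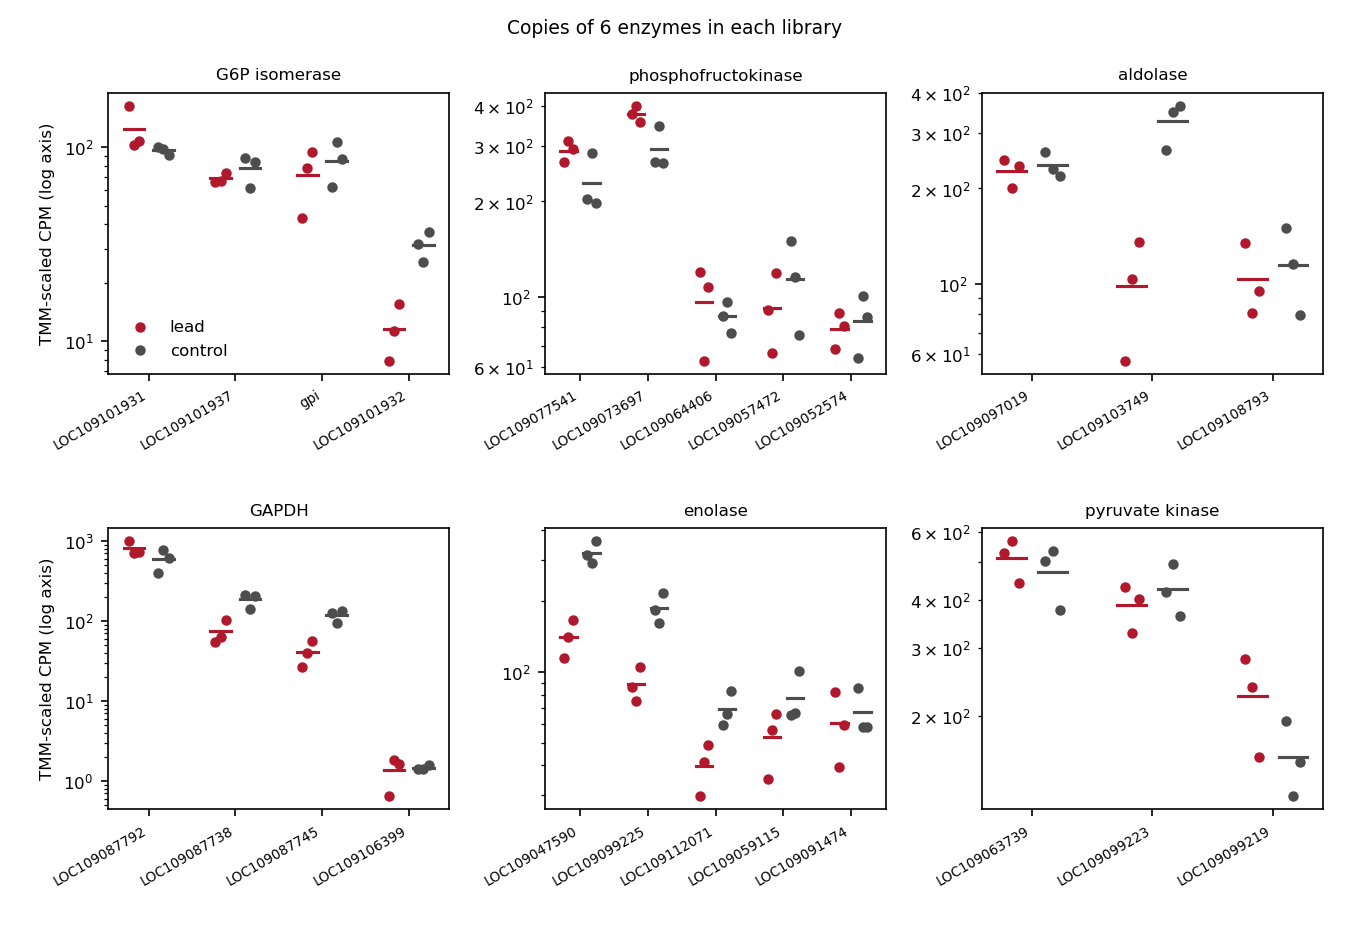
TMM-scaled CPM (log y axis) of the copies of 6 enzymes in each library, lead in red to the left of control in grey, with bars at the group mean; phosphofructokinase and enolase show their 5 most abundant copies. For aldolase C-A (LOC109103749) the lead libraries sit between 57 and 136 CPM and the control libraries between 264 and 365 CPM, while both aldolase A-like copies overlap.

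The 16 genes below the filter complete the set. They comprised 4 hexokinase, 3 muscle-type phosphofructokinase, 3 aldolase, 2 enolase and 3 pyruvate kinase genes and the second gene described like dhtkd1. The enolase 4-like LOC109106304 and the second dhtkd1-like gene LOC109067893 had 0 counts in all 6 libraries. All 3 aldolase genes are described as aldolase B-like, the form known from mammalian liver. Of these LOC109073536 was the most abundant of the genes below the filter, with a mean of 1.09 FPKM, and LOC109093770 and LOC109054613 averaged 0.46 and 0.26 FPKM.

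Summed over their copies, the steps of the pathway fell into those with lower levels in every lead library and those whose groups overlapped. Enolase summed to 328.5, 323 and 417 FPKM in lead libraries, against 704, 622 and 817 FPKM in control libraries. Triosephosphate isomerase summed to 163.5, 183 and 230.5 FPKM in lead libraries, against 445, 347 and 394 FPKM in control libraries. Phosphoglycerate kinase summed to 81.9, 73.9 and 126 FPKM in lead libraries, against 186, 157 and 201 FPKM in control libraries. All lead libraries were below all control libraries in these steps, with log2 differences of -1.01, -1.05 and -0.98. As TMM-scaled CPM per kilobase the differences were -0.90, -0.94 and -0.88, also without overlap. Sums of FPKM, here and in the lists below, hold no TMM factor. With limma on log2(FPKM + 1) the median over all genes tested was -0.09. Aldolase summed to 220.1, 186.5 and 237 FPKM in lead libraries, against 351, 339.9 and 341 FPKM in control libraries, a log2 difference of -0.69. That difference was -0.58 as TMM-scaled CPM per kilobase. With the aldolase C gene outside the set included, the aldolase sum was 822.2 ± 47.6 FPKM in lead and 1069 ± 48 FPKM in control libraries (SD, n = 3 each), a log2 difference of -0.38, still without overlap.

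In the other 6 steps the groups overlapped. Phosphofructokinase summed to 475.2 ± 35.6 FPKM in lead and 472.1 ± 45.8 FPKM in control libraries, and pyruvate kinase to 539.6 ± 53.6 FPKM in lead and 533.5 ± 57.2 FPKM in control libraries (SD, n = 3 each). Hexokinase summed to 102.2 ± 9.45 FPKM in lead and 110.3 ± 7.56 FPKM in control libraries, and glyceraldehyde-3-phosphate dehydrogenase to 1885 ± 282 FPKM in lead and 1946 ± 314.5 FPKM in control libraries (SD, n = 3 each). Glucose-6-phosphate isomerase summed to 276.2 ± 31.4 FPKM in lead and 297.3 ± 12.6 FPKM in control libraries (SD, n = 3 each). Phosphoglycerate mutase, a single gene near the filter, summed to 2.71 ± 1.3 FPKM in lead and 1.43 ± 0.507 FPKM in control libraries (SD, n = 3 each), with a log2 difference of 0.83 and a lead library inside the control range. The 4 steps without overlap each had p = 0.1 in the two-sided exact permutation test over libraries, adjusted p = 0.25 over the 10 steps, and 0.1 is the smallest p that 3 libraries against 3 can give. No step was higher in all lead libraries, and no matching share was taken for sums of other genes. Sums of adjacent or overlapping gene models, as in glucose-6-phosphate isomerase, phosphofructokinase and glyceraldehyde-3-phosphate dehydrogenase, may hold the same gene more than once. So may the enolase sum, through beta-enolase-like LOC109099987 and LOC109086910. The same goes for triosephosphate isomerase, where LOC109059112 and LOC109112142 share a description. Whether these are the same gene was not tested.

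**Figure D3:**
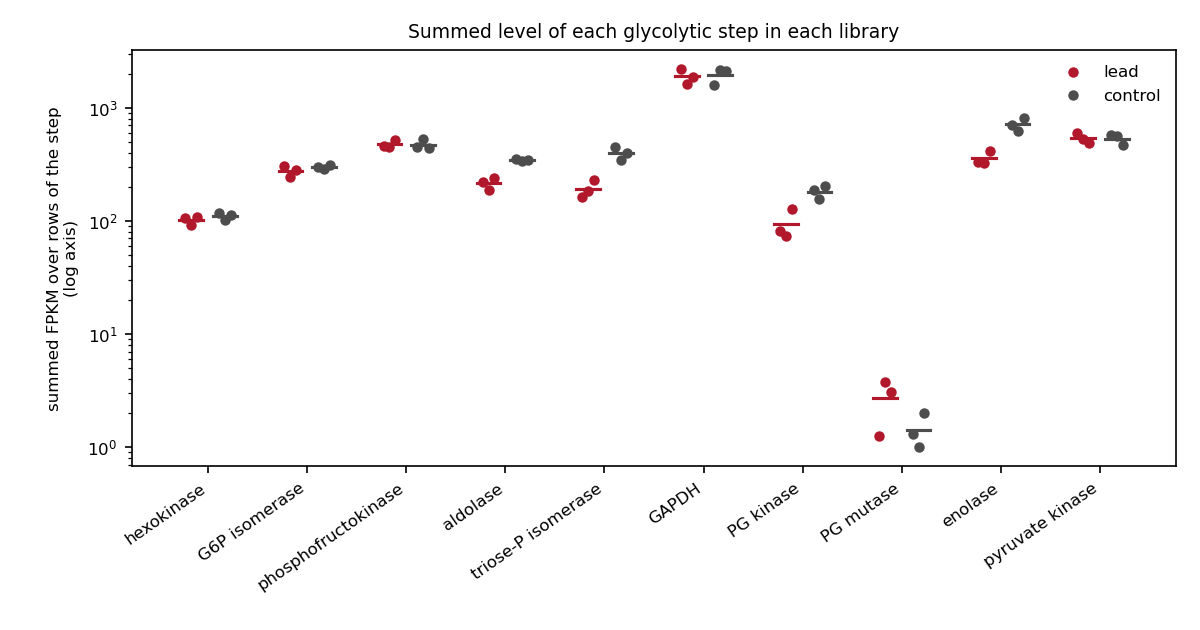
Summed FPKM (log y axis) over the glycolytic genes of each enzyme step, in pathway order, per library, with lead in red to the left of control in grey and bars at the group mean. Aldolase, triosephosphate isomerase, phosphoglycerate kinase and enolase show lead libraries all below control libraries, while hexokinase, phosphofructokinase and pyruvate kinase overlap.

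Ratios taken within a library do not depend on how libraries are scaled to each other and were taken for neighbouring steps. The ratio of summed aldolase to summed phosphofructokinase was 0.483, 0.411 and 0.46 in lead libraries, against 0.78, 0.648 and 0.773 in control libraries. These sums are of genes in the set and leave out LOC109098887, the more abundant aldolase C gene. The ratio of summed pyruvate kinase to summed enolase was 1.81, 1.65 and 1.17 in lead libraries, against 0.816, 0.896 and 0.573 in control libraries. Neither ratio overlapped between the groups, and pyruvate kinase exceeded enolase in every lead library and in no control library. Triosephosphate isomerase over aldolase and phosphoglycerate kinase over glyceraldehyde-3-phosphate dehydrogenase were lower with lead without overlap. Glyceraldehyde-3-phosphate dehydrogenase over triosephosphate isomerase was higher without overlap. The barely detected phosphoglycerate mutase was higher over phosphoglycerate kinase, and enolase was lower over the mutase, also without overlap. The ratios of glucose-6-phosphate isomerase to hexokinase and of phosphofructokinase to glucose-6-phosphate isomerase overlapped. All these ratios, that of aldolase to phosphofructokinase included, rest on the step sums already given, so they add no independent test.

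Within the set, the ratio of the most abundant tested copy of a step to the next separated the groups without overlap in 3 of 9 steps compared. Of all single genes tested, 12.6% were lower and 11.9% higher with lead without overlap. No matching share was taken for ratios of other genes, so that count is no result by itself. With 3 libraries against 3 the exact permutation test cannot go below p = 0.1, so no ratio could pass the adjusted test. Aldolase A-like LOC109097019 over aldolase C-A LOC109103749 was 5.42, 2.43 and 2.18 in lead libraries, against 1.24, 0.828 and 0.754 in control libraries. Aldolase C-A accordingly made up 19.2 ± 7.54% of the aldolase sum of the set in lead and 42.3 ± 7.84% in control libraries (SD, n = 3 each). The more abundant aldolase C gene outside the set, LOC109098887 (mean 666.1 FPKM), is in neither the ratio nor these shares. Its inclusion would make the shares of aldolase C-A smaller in both groups. The dehydrogenase ratio LOC109087792 over LOC109087738 was 19, 11.7 and 7.29 in lead libraries, against 1.99, 5.71 and 3.13 in control libraries. LOC109087792 took 88 ± 5.0% of the dehydrogenase sum in lead and 66.8 ± 11% in control libraries (SD, n = 3 each). Phosphoglycerate kinase LOC109086677 over LOC109086678 was 3.79, 3.28 and 3.5 in lead libraries, against 4.94, 4.79 and 5.45 in control libraries. These 3 ratios did not overlap between the groups, with log2 differences of 1.74, 1.84 and -0.52, each at an exact permutation p of 0.1 (two-sided) and an adjusted p of 0.3 over the 9 ratios. In hexokinase, phosphofructokinase, triosephosphate isomerase and enolase, the ratio of the leading copies overlapped between the groups, with log2 differences of 0.01, -0.02, -0.07 and -0.13. It also overlapped in glucose-6-phosphate isomerase and pyruvate kinase, with log2 differences of 0.50 and 0.26.

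**Figure D4:**
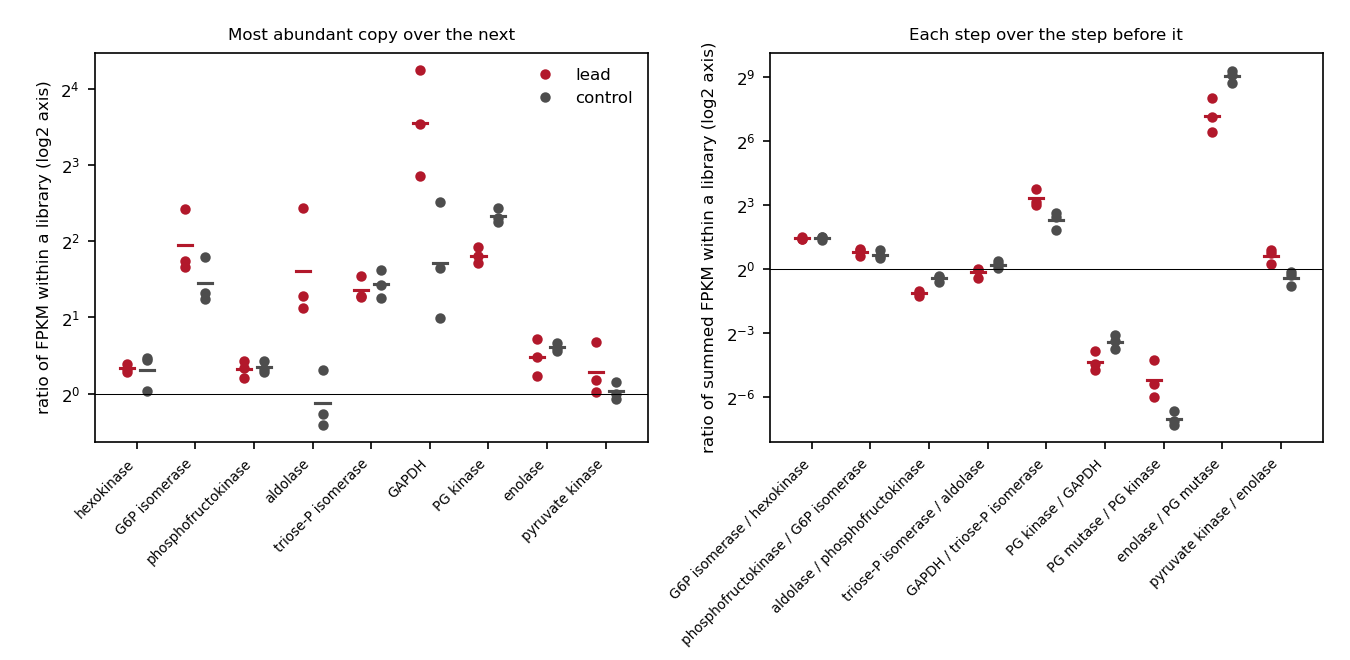
Left, FPKM of the most abundant tested copy over the next most abundant one within each library, per step; right, summed FPKM of each step over the step before it in the pathway; both on log2 y axes, lead in red to the left of control in grey, with bars at the mean of the log values. On the left the aldolase ratios lie between 2.18 and 5.42 in lead and between 0.754 and 1.24 in control libraries. On the right pyruvate kinase over enolase lies above 1 in lead libraries only. Both panels hold genes of the set only and leave out the more abundant aldolase C gene, LOC109098887.

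Around the pathway, genes described as glucose or monocarboxylate transporters, with basigin, were counted in the same way. The list was matched on description and takes in monocarboxylate transporters of many types. Which of them carry lactate was not tested. Of 42 tested genes for glucose and monocarboxylate transport, 10 (23.8%, against 8.77% of all genes tested) had an unadjusted p under 0.05 and were lower with lead, and 4 (9.52%, against 7.53%) were higher at that p. None of the 42 passed the edgeR adjusted p, and the median log2 fold change was -0.37. Summed over all 82 genes of the list, tested or not, the level was 396.5 to 493.6 FPKM in lead and 630.1 to 749.2 FPKM in control libraries, without overlap. The 2 basigin genes, whose product is no transporter itself, made up 50.3% of that sum. The other 80 genes summed to 210.1 to 265.6 FPKM in lead and 296.6 to 339.1 FPKM in control libraries, also without overlap. Basigin (bsg), the chaperone that monocarboxylate transporters need at the cell surface, had 154, 136 and 188 CPM in lead libraries, against 300.2, 219 and 279.7 CPM in control libraries (log2 fold change -0.74, SE 0.18, edgeR adjusted p = 0.182). A low-level monocarboxylate transporter 12-B-like gene, LOC109062472, had a log2 fold change of -2.49 (SE 0.53, adjusted p = 0.157 by edgeR). It passed the filter only through the control libraries, at 2.06, 1.71 and 1.71 FPKM, against 0.272, 0.135 and 0.486 FPKM in lead libraries. Its direction was thus partly fixed by the filter, and it is counted among the 10 lower genes. The glucose transporter gene slc2a1, whose product carries glucose across the blood-brain barrier in mammals, had 16.9, 7.14 and 10.1 CPM in lead libraries, against 42, 37.4 and 19.2 CPM in control libraries (log2 fold change -1.53, SE 0.40, edgeR adjusted p = 0.192). Its more abundant copy LOC109109437 had 73.4, 27.2 and 45.6 CPM in lead libraries, against 87, 173 and 85.4 CPM in control libraries (log2 fold change -1.24, SE 0.43). The groups did not overlap in either of these genes. They overlapped in another slc2a1-like gene, LOC109056668, with 8.39, 8.06 and 10.95 CPM in lead libraries, against 15.6, 9.77 and 12.24 CPM in control libraries. Its log2 fold change was -0.46 (SE 0.24, edgeR unadjusted p = 0.0998). A glucose transporter member 3-like gene more abundant than slc2a1, LOC109074924, had 69.1, 68.3 and 61 CPM in lead libraries, against 71.7, 89.95 and 64.1 CPM in control libraries. Its groups overlapped (log2 fold change -0.19, SE 0.16), as did those of the less abundant member 3-like LOC109056673 (log2 fold change -1.105, SE 0.57). The monocarboxylate transporter 4-like LOC109053168 had 68.1, 56.6 and 57.5 CPM in lead libraries, against 37.1, 35.3 and 56.6 CPM in control libraries, with its lowest lead library level with its highest control library (log2 fold change 0.50, SE 0.21, unadjusted p = 0.0437). The other monocarboxylate transporter 4-like gene of the 4 higher ones, LOC109084713, had 63.5, 56.1 and 62.7 CPM in lead libraries, against 46, 41.9 and 47.2 CPM in control libraries, without overlap (log2 fold change 0.43, SE 0.13, unadjusted p = 0.0112, edgeR adjusted p = 0.213). The remaining 2 were of lower level, a monocarboxylate transporter 13-like gene, LOC109108988, without overlap (log2 fold change 0.73, SE 0.26) and a monocarboxylate transporter 2-like gene, LOC109095127, whose groups overlapped (log2 fold change 1.82, SE 0.64).

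Beyond pyruvate the shares lay near those of all genes. Of 30 tested genes for the fate of lactate and pyruvate, 4 with an unadjusted p under 0.05 were lower (13.3%, against 8.77% of all genes tested) and 3 were higher (10.0%, against 7.53%), with a median log2 fold change of 0.04. The lactate dehydrogenase genes, which interconvert pyruvate and lactate, were led by ldhb, with 413, 406 and 345 CPM in lead libraries, against 326, 367 and 339 CPM in control libraries (log2 fold change 0.17, SE 0.14). A B-A chain-like gene of similar level, LOC109071380, had 418, 386 and 354 CPM in lead libraries, against 343.5, 343 and 311.5 CPM in control libraries. Its groups did not overlap (log2 fold change 0.22, SE 0.13, edgeR unadjusted p = 0.144). Pyruvate carboxylase LOC109080026, the enzyme that refills the citrate cycle and in mammalian brain is found in astrocytes, had 10.1, 10.8 and 15.2 CPM in lead libraries, against 23.6, 18.7 and 23.3 CPM in control libraries (log2 fold change -0.86, SE 0.22, edgeR adjusted p = 0.182). A pyruvate dehydrogenase kinase, LOC109112616, whose product switches off entry of pyruvate into the citrate cycle, had a log2 fold change of -0.84 (SE 0.21).

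The remaining lists of metabolic genes held few genes past an unadjusted p of 0.05, and edgeR called none of their genes after adjustment. Gluconeogenesis, with 1 gene tested, aside, their shares of lower genes, 7.14% to 11.1%, and of higher genes, 0 to 8.33%, were near the 8.77% and 7.53% of all genes tested, so these counts are no result about the lists. Glycogen metabolism had 3 lower and 1 higher of 30, with brain-form glycogen phosphorylase-like LOC109107878 at a log2 fold change of -1.42 (SE 0.43) and a glycogen synthase, LOC109069551, at -0.49 (SE 0.16). The NADH shuttles had 3 lower and 0 higher of 27, led by got1, the cytoplasmic aspartate aminotransferase of the malate-aspartate shuttle, with 26.1, 31.3 and 35.1 CPM in lead libraries, against 55.5, 53.3 and 51.4 CPM in control libraries (log2 fold change -0.79, SE 0.15, edgeR adjusted p = 0.149). A glycerol-3-phosphate dehydrogenase 1-like gene of low level, LOC109071984, was at -1.73 (SE 0.42). This gene too passed the filter only through the control libraries, at 2.5, 2.19 and 3.59 FPKM, against 0.592, 0.769 and 0.935 FPKM in lead libraries. Its direction was thus partly fixed by the filter, and it is counted among the 3 lower genes. The pentose phosphate pathway had 1 lower and 1 higher of 12, a 6-phosphogluconate dehydrogenase, LOC109113850, at -1.85 (SE 0.40) and a ribose-5-phosphate isomerase, LOC109045295, at 0.95 (SE 0.18). The control of fructose 2,6-bisphosphate, the activator of phosphofructokinase, had 1 lower and 1 higher of 14. These were bifunctional kinase and phosphatase genes, LOC109061503 at -1.12 (SE 0.40) and LOC109098738 at 0.44 (SE 0.17). Among the hypoxia regulators, which control glycolytic genes in mammals, 2 were lower and 1 higher of 18. A HIF1A-like gene, LOC109101721, was at -0.65 (SE 0.17), and hif1an, which encodes an inhibitor of HIF1A, was at 0.69 (SE 0.20). Of the gluconeogenic genes only LOC109065763, glucose-6-phosphatase 3-like, passed the filter, with a log2 fold change of -0.00 (SE 0.27).

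Markers of brain cell types were counted against the same shares of all genes tested, where an unadjusted p under 0.05 went with lower levels in 8.77% and higher levels in 7.53%. Sums of markers, here and below, are over all genes of a list, tested or not. Of 18 tested markers of astroglia and radial glia, 8 (44.4%) were lower and 1 (5.56%) was higher. The sum of the astroglial list was 3427 to 4318 FPKM in lead and 4174 to 4733 FPKM in control libraries. Of 42 neuron markers, 10 (23.8%) were lower and 1 (2.38%) higher. Of 26 oligodendrocyte and myelin markers, 4 (15.4%) were lower and 0 higher, with sums of 2342 to 2475 FPKM in lead and 2160 to 4512 FPKM in control libraries. Of 15 microglia and macrophage markers, 4 (26.7%) were lower and 0 higher, with sums of 384.8 to 451 FPKM in lead and 422.8 to 940.7 FPKM in control libraries. Endothelium markers had 3 lower (18.8%) and 2 higher (12.5%) of 16, with sums of 127.4 to 166.3 FPKM in lead and 133.6 to 206 FPKM in control libraries. At 0 in every library were 3 of 50 neuron markers, all neurofilament heavy-like, 1 of 27 astroglial ones, a copy like excitatory amino acid transporter 2, and 3 of 49 myelin ones, all myelin-associated glycoprotein-like. The same held for 1 of 25 microglial markers, like macrophage-expressed gene 1, and for 0 of 23 endothelial ones. The part of these markers in the glycolytic values was not tested.

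Markers of tissues that could be carried along at dissection were measured too. Skeletal muscle, which expresses glycolytic enzymes at high levels, had 22 of 81 markers tested, with an unadjusted p under 0.05 in 0 of them. The muscle markers summed to 181.4 to 230.2 FPKM in lead and 170.4 to 221.2 FPKM in control libraries, and 7 of the 81 were at 0 in every library, among them 2 fast skeletal myosin heavy chain genes. Red blood cell markers had 1 lower and 1 higher of 13 (7.69% each), with sums of 1455 to 2076 FPKM in lead and 1238 to 1961 FPKM in control libraries. Retina and pineal markers had 2 lower (9.09%) and 0 higher of 22, with sums of 104 to 114.7 FPKM in lead and 91.35 to 116.2 FPKM in control libraries, and 1 of the lower ones passed the edgeR adjusted p.

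**Figure D5:**
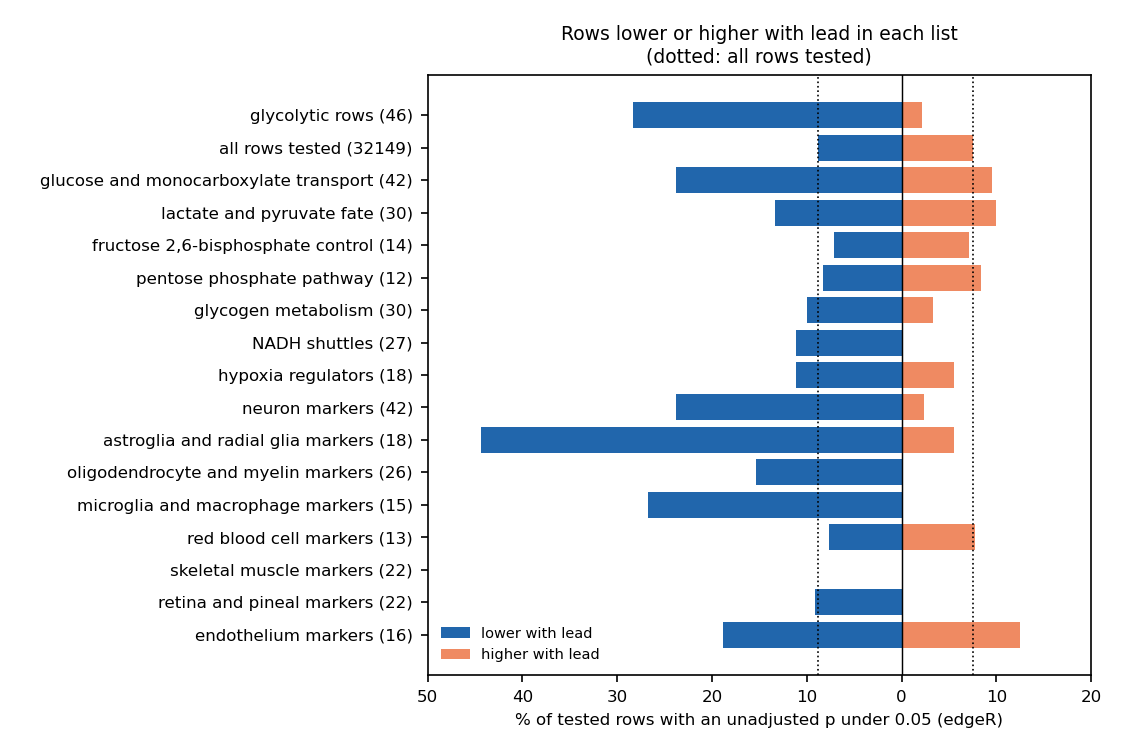
Share of tested genes of each list (number in brackets) with an unadjusted p under 0.05 in edgeR, lower with lead to the left in blue and higher with lead to the right in orange, with dotted lines at the shares over all genes tested (8.77% and 7.53%). Glycolytic genes stand at 28.3% lower and 2.17% higher, astroglial markers at 44.4% and 5.56%, and muscle markers at 0 in both directions.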

How the data were processed

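Brain libraries were grouped by the agent label. The file headers name the deposited values as count and FPKM. The count values were taken here as whole reads or fragments per gene, unscaled, which the headers do not state. The FPKM values were taken as made by the authors per kilobase of transcript and scaled to library size. Per the submitters' processing notes, Bowtie 0.12.2, HISAT2 2.0 and StringTie 1.3.0 were used, with roles not given, and the build is named mm8, a mouse build; the table places genes on carp RefSeq sequences of an assembly not given in the sources used here, so positions are printed as in the table. Per the labels' protocols, poly(A) RNA was selected and read in pairs; they mention adipose material although the tissue is labelled brain.

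Counts were tested with edgeR 4.0.16 (robust quasi-likelihood, TMM scaling, group as the only term) in R 4.3.3 on the 32149 genes that 3 or more libraries held at an FPKM of 1 or above. SE is the log2 fold change divided by the square root of F. The procedure was tested on simulated data. DESeq2 1.42.0, limma 3.58.1, other scalings and filters, a block for the replicate number and fits without each library in turn were alternatives. Summed FPKM and copy ratios were compared by exact permutation over libraries. Total counts of 27841520 to 34848243 limit precision for genes near the filter, and p-values cover the spread between libraries only.

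The members and lists were chosen with earlier results of these data known. Other lists were matched on the description column, and false matches were removed from them by description after the table was seen. By rule, the text names for each step the tested copy of highest FPKM and that of smallest p, and from each pathway list the 2 of smallest p; other genes named were chosen after their values were seen. No count column belonged to an unmapped sample (0 columns).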

Additional observations from a re-analysis of the deposited data

How the results depend on the processing

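The 13 glycolytic genes lower at an unadjusted p under 0.05 numbered 12 to 17 over 15 alternatives. The share of all genes tested at an unadjusted p is given only for the main fit. Counts at an unadjusted p under the alternatives therefore have no background beside them. No glycolytic gene passed an adjusted p of 0.05 under any of them except DESeq2, which called 10 lower and, over all genes, 1340 in place of 19. Genes called over the whole table numbered 30 with no low-value filter, 0 with no trend and no robust step, 1 with the replicate block and 4 to 25 with 1 library left out, the 4 without lead replicate 2. Genes of the set higher at an unadjusted p (1 gene) numbered 0 with library totals only, with an FPKM of at least 5, with limma on log2(FPKM + 1) or log2(FPKM + 0.1) and with no trend, 2 with no filter or DESeq2, 3 with the block, and 0 to 3 with 1 library left out (3 without control replicate 2, 0 without control replicate 3). The median of -0.34 was -0.44 with library totals only, a scaling that moved the median of all genes to -0.11. It was -0.43 with an FPKM of at least 5, and -0.46 to -0.30 with 1 library left out.

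Values near 0 changed sign, and so did some further from 0. Over all alternatives enolase LOC109086910 (-1.17), with a library at 0 in each group, lay between -1.845 and 0.88. Phosphofructokinase LOC109110642 (-0.38), also of few counts, lay between -0.97 and 5.79, and isomerase gpi (-0.24) between -0.49 and 0.026. Hexokinase LOC109082155 (0.01) was -0.10 with library totals only, -0.083 with an FPKM of at least 5, -0.10 with limma at either pseudocount and -0.078 to 0.077 with 1 library left out. With 1 library left out, LOC109097019 lay between -0.11 and 0.026, LOC109049578 between -0.47 and 0.25 and LOC109063739 between -0.020 and 0.22. Summed dehydrogenase (-0.043) was 0.061 as TMM-scaled CPM per kilobase and -0.18 to 0.061 with 1 library left out, summed phosphofructokinase -0.050 to 0.090 and summed pyruvate kinase -0.074 to 0.085. The copy ratios of hexokinase, phosphofructokinase and triosephosphate isomerase lay between -0.13 and 0.091, -0.074 and 0.036, and -0.17 and 0.023. Of 238 other settings for the genes named by rule for each step, 221 kept direction and call, 11 changed sign and 6 gained a DESeq2 call. The cause was not tested.

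No label says that replicate numbers pair libraries, and deviations of same-numbered libraries correlated at 0.162, 0.0573 and 0.117, with lead replicate 2 closest to control replicate 3 (0.0721). With the replicate block, 17 glycolytic genes were lower at an unadjusted p, and the share of all genes under that setting is not given. The median with the block was -0.29 over glycolytic genes and -0.01 over all genes tested. The aldolase sum with genes that carry its enzyme number but not the term was an alternative added after the data were seen. Genes near the filter, such as phosphoglycerate mutase, have too few counts for a direction.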
